A study of Mus musculus with 14 samples.

Results

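Of the 35003 open chromatin regions listed for WT nuclei of mouse colon muscularis, 14131 (40.4%, 95% exact binomial interval 39.9 to 40.9) lay at a promoter. A region was counted as promoter-proximal when its interval came within 1000 bp of the start-end interval of a gene row on the same chromosome. These gene intervals span transcript starts and not gene bodies: 99.3% of the 32222 gene rows matched to GENCODE M21 began and ended on an annotated transcript start. Of the promoter regions, 12729 (90.1%) lay within 1000 bp of a GENCODE transcript start, and 1402 lay only inside a wide interval between the alternative starts of a gene.

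The nuclei came from C57BL/6 mice in 1 library per genotype, labelled "WT mTmG" (WT) and "Carmn iKO" (KO), and each barcode had RNA and accessible chromatin read together. mTmG is a fluorescent reporter allele, and Carmn encodes a lncRNA abundant in smooth muscle cells. The sources used here do not state how and when Carmn was deleted, in which cells, or how old the mice were. The muscularis was isolated by hand and flash frozen. Bulk RNA-seq of colon muscularis added 3 libraries per genotype with the same labels, fitted together with 3 KO and 3 WT libraries of jejunum.

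A promoter is the stretch of DNA around a transcript start where RNA polymerase and general transcription factors assemble. Promoters of broadly used genes usually lie in CpG islands, stretches rich in CG dinucleotides that stay free of nucleosomes in most cell types, whereas many promoters of tissue-specific genes are CpG-poor and often carry a TATA box. Smooth muscle contractile genes are classically driven by serum response factor (Srf) and its coactivator myocardin (Myocd), which act through CArG boxes.

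The WT library held 3476 barcodes and 2999075 region counts, and the other 2164 barcodes and 1854201 counts; 11 barcodes occurred in both. Nuclei kept for cell typing numbered 2827 (WT) and 1691 (KO), with medians of 1574 and 1854 unique molecular identifiers (UMIs). Carmn, the targeted gene, went against the KO label in bulk colon. Libraries m1, t4 and t6, labelled KO, had 461, 304 and 718 CPM (read counts scaled to a common library total). The WT libraries had 252 (t1), 171.5 (t6) and 351.5 (t7) CPM. The 2 ranges overlapped (log2 fold change 0.94, SE 0.34, edgeR adjusted p = 0.234). In nuclei it was lower in the library labelled KO, at 206.5 against 648 CPM of UMIs (1376 and 5542 UMIs). The Carmn promoter region had 148 counts in WT and 120 in the library labelled KO, a ratio of 1.31 in CPM of region counts (95% interval 0.92 to 1.87). Which part of Carmn was deleted is not stated either, so these values may lie outside it, and every direction below is drawn between libraries as they were labelled. Region counts come mostly in pairs, so each interval here and below was made from pairs of counts. Intervals cover counting error only, and with 1 nuclear library per genotype no difference between the nuclear libraries has a replicate check or a p-value.

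The 6 promoters below span the range of CpG content, from housekeeping to contractile genes. Each line gives the 250 bases before the RefSeq start (GRCm38.p6) on the gene's strand, with every CG in capitals. The first 4 are overlapped by a WT region, and the last 2, both of contractile genes, are not.
Eef1a1 (translation elongation factor, chr9:78481725-78481974, minus strand): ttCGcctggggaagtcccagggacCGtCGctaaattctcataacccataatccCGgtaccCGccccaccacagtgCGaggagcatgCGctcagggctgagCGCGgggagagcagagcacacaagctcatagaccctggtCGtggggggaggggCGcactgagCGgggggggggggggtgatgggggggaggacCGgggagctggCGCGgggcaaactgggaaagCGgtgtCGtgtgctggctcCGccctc
Srf (serum response factor, chr17:46556163-46556412, minus strand): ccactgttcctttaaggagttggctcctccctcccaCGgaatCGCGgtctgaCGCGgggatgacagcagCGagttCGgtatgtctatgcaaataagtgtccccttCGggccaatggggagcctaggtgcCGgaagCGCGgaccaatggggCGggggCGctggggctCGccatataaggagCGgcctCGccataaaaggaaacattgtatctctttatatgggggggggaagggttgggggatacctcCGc
Smtn (smoothelin, an actin-binding protein of contractile smooth muscle, chr11:3539293-3539542, minus strand): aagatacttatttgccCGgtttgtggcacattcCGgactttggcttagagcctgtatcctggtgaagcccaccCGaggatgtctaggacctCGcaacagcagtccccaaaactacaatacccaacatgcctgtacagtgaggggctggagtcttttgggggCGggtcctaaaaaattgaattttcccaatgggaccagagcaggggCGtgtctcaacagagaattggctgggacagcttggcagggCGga
Kcnmb1 (regulatory subunit of the smooth muscle BK potassium channel, chr11:33962763-33963012, plus strand): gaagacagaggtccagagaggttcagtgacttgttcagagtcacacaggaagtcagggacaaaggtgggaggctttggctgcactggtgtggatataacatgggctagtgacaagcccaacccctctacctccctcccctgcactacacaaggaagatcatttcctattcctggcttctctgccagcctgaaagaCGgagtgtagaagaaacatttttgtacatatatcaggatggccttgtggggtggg
Lmod1 (leiomodin 1, an actin filament nucleator, chr1:135324563-135324812, plus strand): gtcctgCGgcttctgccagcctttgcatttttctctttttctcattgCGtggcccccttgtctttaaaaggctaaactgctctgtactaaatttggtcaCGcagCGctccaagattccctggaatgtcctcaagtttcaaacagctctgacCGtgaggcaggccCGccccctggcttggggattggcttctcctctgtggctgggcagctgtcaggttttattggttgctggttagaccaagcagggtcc
Des (desmin, the muscle intermediate filament protein, chr1:75360042-75360291, plus strand): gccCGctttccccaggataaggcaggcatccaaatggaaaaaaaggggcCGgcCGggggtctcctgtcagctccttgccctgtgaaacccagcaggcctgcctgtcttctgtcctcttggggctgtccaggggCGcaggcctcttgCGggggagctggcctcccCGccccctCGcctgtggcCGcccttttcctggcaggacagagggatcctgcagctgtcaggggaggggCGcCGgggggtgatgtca
The printed stretches of Eef1a1 and Srf hold 18 and 17 CG, against 7 in Smtn, 1 in Kcnmb1, 6 in Lmod1 and 10 in Des. Among the 4 contractile genes the unlisted Des and Lmod1 thus hold more CG than the listed Kcnmb1, unlike the pattern over all promoters given below. The Srf stretch also holds 2 CArG box matches, ccatataagg and ccataaaagg, which begin 82 and 62 bases before the start. The windows of the other 5 held no match on either strand.

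Promoter regions were fewer than the other regions but held most of the signal. They took 2120883 of the counts, 70.7%, on 41.7% of the covered bases. The median promoter region had 140 counts (quartiles 78 and 204) and was open in 2.01% of barcodes. The median of the other 20872 regions was 28 counts and 0.403% of barcodes. Widths were alike, with medians of 935 and 911 bp, so the density was 155 counts per kb at promoters and 45.95 elsewhere. The library labelled KO, whose regions were called separately, gave close shares: 11316 of 26493 regions (42.7%) held 70.5% of the counts.

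The signal fell with distance from the start interval. The 12833 regions that overlapped an interval had a median of 147 counts. Those beside one had less, with medians of 81 in the 739 nearer and 71 in the 559 farther regions. Just outside the limit, the 270 nearest regions had a median of 57 counts. Of the promoter regions 18.1% were shared by 2 or more genes. Among 2489 regions with 2 genes of known strand, the genes lay on opposite strands in 2383 (95.7%), the arrangement of a bidirectional promoter.

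The 6 regions with most counts stood far above all others. The highest, beside the predicted gene Gm10800 on chromosome 2 (98666083 to 98666804), had 6244 counts and at least 1 count in 43.4% of barcodes. The next 5 lay beside AC149090.1 on an unplaced scaffold (5105 counts), Gm42418 and AY036118 (3416), Gm10801 (3361), Gm10800 again (3237) and Gm26917 (2980). Gm42418, AY036118 and Gm26917 lie close together on chromosome 17. All 6 were also listed in the library labelled KO, with 2785 to 6010 counts. After them came Hjurp, a histone chaperone gene, with 837 counts and 10.6% of barcodes. The 6 regions took 1.15% of promoter counts. Whether reads at these 6 map to a single place was not tested, so their counts are not read as opening.

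Of the 32285 gene rows, 13948 (43.2%) had a promoter region in WT nuclei. The share was 55.2% of 21702 protein-coding genes, 25.7% of 2955 antisense genes and 12.2% of 5605 lincRNA genes. Among the gene groups, all 12 immediate early genes (stimulus-induced transcription factors and regulators such as Fos and Egr1) had one. So did 11 of 12 housekeeping genes, 13 of 20 contractile genes and 13 of 18 measured transcription factors of smooth muscle. Hox genes, which give cells their position along the body axis, had one in 10 of 39 cases, and the 16 genes of other organs in 0 (Alb, Ins2 and Myh6 among them). Medians of the counts followed a like order: 269 for immediate early, 268 for housekeeping, 189 for the transcription factors, 133 for contractile and 79.5 for Hox genes.

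A missing region does not mean a closed promoter. Gapdh, a glycolytic enzyme gene with 77 WT UMIs, had no listed promoter region, whereas 76.7% of the 2168 genes with 59 to 112 UMIs did. Its bulk RNA stood at 666.6 CPM on average in WT colon. Nfkbia, the inhibitor of NF-kappa-B, was listed only in the library labelled KO, with 315 counts. Garnl3 was listed only in WT, with 593 counts, the most of any such promoter. The lists are therefore read below as what was called, and nothing is drawn from a missing region.

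CpG content separated listed from unlisted promoters. Of 32851 RefSeq windows of 300 bases (250 before and 50 after a start), 11852 (36.1%) were overlapped by a WT region. The overlapped windows had a median of 22 CG and 62.0% GC, and the others 4 CG and 48.3% GC. The share overlapped was 2.64% (95% exact interval 2.29 to 3.02) of 7656 windows with up to 2 CG. It was 21.9% (20.7 to 23.0) with 6 to 10 CG, 74.8% (73.1 to 76.4) with 16 to 20 CG and 80.9% (79.4 to 82.4) with 21 to 25 CG. Above that it stayed level, at 80.1% (78.7 to 81.4) with 31 or more.

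Short motifs, searched on both strands, differed along the same line. GGGCGG, the core of the Sp factor site, was in 67.4% of overlapped windows against 17.7% of the others and 35.7% of all windows. CCGGAAG, an ETS factor site, was in 19.3% against 2.99% (8.86% of all). TGACGTCA, the cyclic AMP response element, was in 3.6% against 0.767% (1.79% of all). The TATA box TATAAA went the other way, with 5.86% against 18.0% (13.6% of all), as did the AP-1 site TGANTCA, with 4.19% against 9.85% (7.81% of all). CCAAT differed little (38.5% against 36.8%, 37.4% of all), and a CArG box was in 1.19% against 1.88% (1.63% of all). The first 3 motifs themselves hold a CG, so these shares are not independent of the CpG count. A match is a description of the letters and not a bound site.

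**Figure D1:**
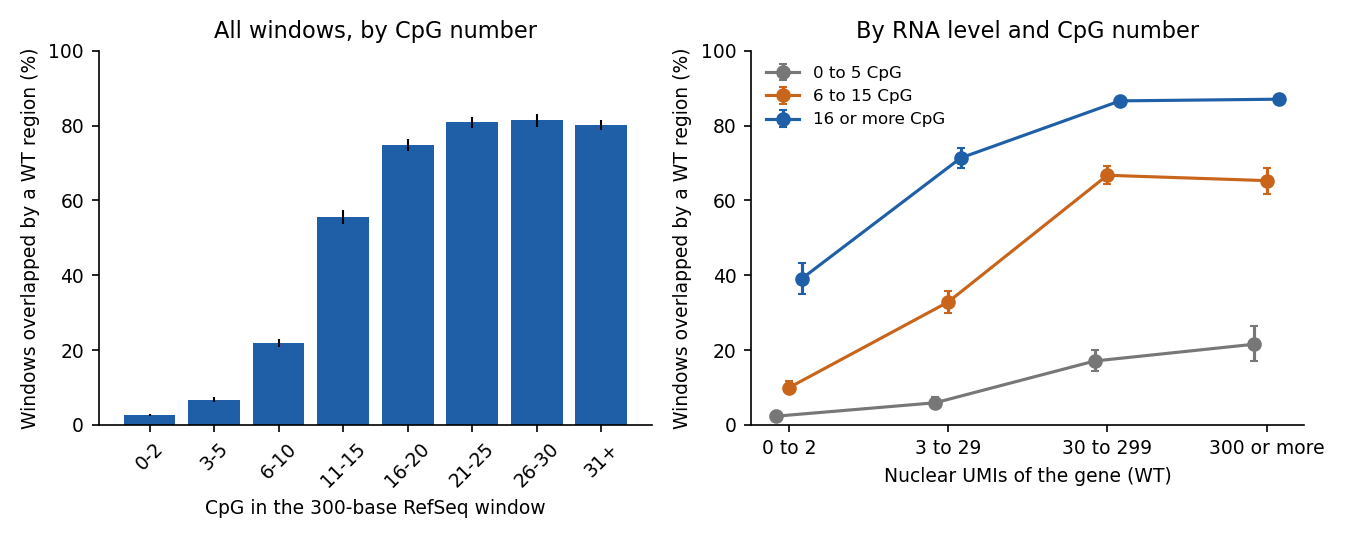
Left: share of RefSeq promoter windows overlapped by a WT region (%), by the number of CG in the 300 bases; bars are shares and lines 95% exact binomial intervals. Right: the same share with a single window per gene, by WT nuclear UMIs of the gene and by CG number. Genes with 300 or more UMIs reach 21.5% at 0 to 5 CG and 87.1% at 16 or more.

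Within classes of RNA level, listing still rose with CpG content, and within classes of CpG content it rose with RNA and then levelled. Among genes with 300 or more UMIs, the share overlapped was 21.5% (17.2 to 26.4) of 325 windows with 0 to 5 CG and 87.1% (85.8 to 88.2) of 2950 windows with 16 or more. Among windows with 16 or more CG it was 39.0% (35.0 to 43.2) of 556 genes with 0 to 2 UMIs and 71.4% (68.7 to 74.0) of 1152 genes with 3 to 29 UMIs. It was 86.6% (85.5 to 87.7) with 30 or more but under 300 UMIs and 87.1% above that. CpG-rich windows of nearly silent genes were thus listed more often than CpG-poor windows of genes with abundant RNA in this library. The intervals of the shares did not overlap. Each gene entered through a single window, although genes can have several starts. For an abundant gene that window may lie at a start that is little used. Whether the comparison holds for the starts in use was not tested. Windows in a region shared with an expressed neighbour were not set apart. Of all genes with a region and under 3 UMIs, 41.97% shared it with a gene of 3 or more UMIs. The gene groups differed in CpG content as well. Median CG per window was 24 for 10 matched housekeeping genes, 26 for 10 immediate early genes and 26 for 12 transcription factors, but 11 for 17 contractile genes and 2.5 for 12 genes of other organs.

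The share of genes with a promoter region rose with nuclear RNA. Among 10604 genes with no UMI it was 8.13% (7.62 to 8.67), in the lowest decile of the 21681 detected genes 15.2% (13.7 to 16.8), and in the highest decile 87.9% (86.5 to 89.3). Spearman's rank correlation between UMIs and the counts of the gene's lead region, its region with most counts (0 where none was listed), was 0.524 over 21681 genes. Genes are not independent replicates and UMIs also depend on gene length, so the rank correlation is given as a description. Once a region was listed, its counts followed RNA only loosely: the rank correlation was 0.188 over 13086 genes, and the median counts were 99 in the lowest decile and 183 in the highest. Bulk RNA gave a like picture. In WT colon 5.12% of 4801 genes at 0 CPM had a region, 56.0% of 4987 genes at 1 to 10 CPM and 83.7% of 8514 genes at 10 to 100 CPM. Of 65 genes at 1000 CPM or more, 44 had one (67.7%, 55.0 to 78.8).

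**Figure D2:**
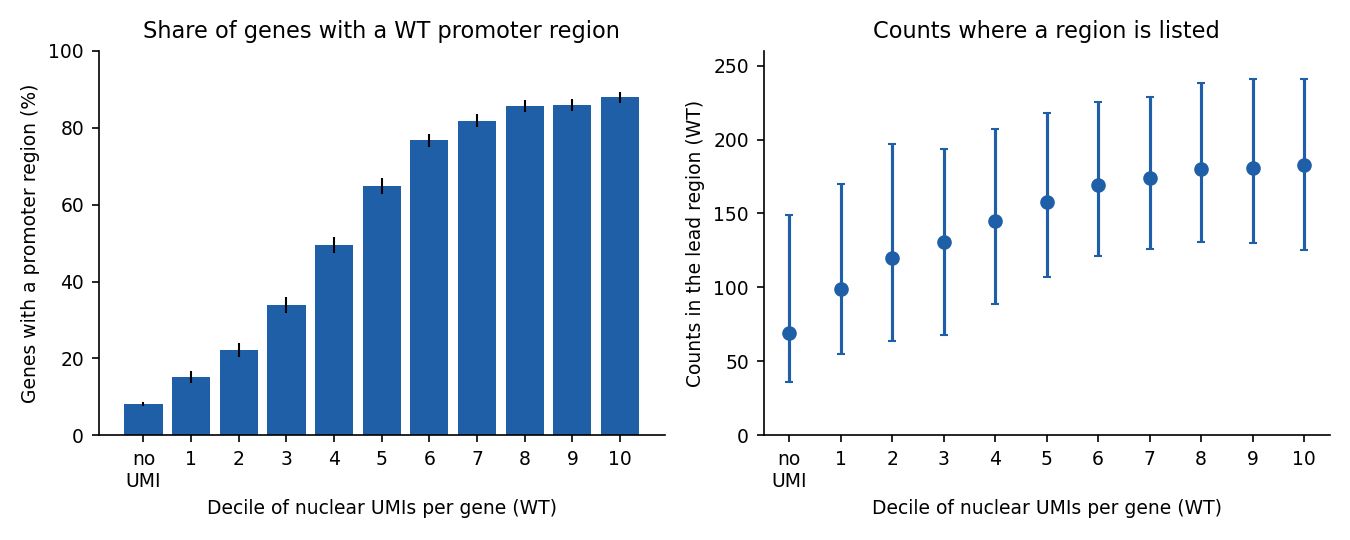
Genes of the WT nuclei by deciles of nuclear UMIs, with genes of no UMI at the left. Left: share with a promoter region (%), with 95% exact binomial intervals, from 8.13% to 87.9%. Right: median counts of the lead region where one is listed, with quartiles.

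The extremes of this relation were genes with much RNA and no region, and genes with a strong region and almost no RNA. The 5 genes with most UMIs and no promoter region were Plcb1 (24467 UMIs), Nrg3 (17412), Fam155a (13526), Pcdh7 (13447) and Il1rapl1 (13215). Plcb1 encodes a phospholipase C, Nrg3 a neuregulin and Pcdh7 a protocadherin. They span 415264 to 1374776 bp in GENCODE, and UMIs in nuclei also count intronic RNA, of which long genes have more. At the other end, Gm12735 (560 counts, 1 UMI), Gm26805 (481, 1 UMI), C330013E15Rik (462, 0) and Gm21738 (458, 0) had the most promoter counts with under 3 UMIs. All of these but Gm21738 share their region with an expressed gene, Sfi1, Tsga10 and Dazap2, with 559, 333 and 87 UMIs. Of all 1444 genes with a region and under 3 UMIs, 606 (41.97%) shared it with a gene of 3 or more UMIs.

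Of the 14131 WT promoter regions, 9528 (67.4%, 66.7 to 68.2) were overlapped by a region of the library labelled KO. Of the other WT regions, 4992 (23.9%, 23.3 to 24.5) were. The share followed the counts. It was 14.9% (12.3 to 17.8) of promoter regions with under 25 counts, 44.2% (42.4 to 46.1) with 50 to 99, 78.1% (77.0 to 79.2) with 100 to 199 and 92.7% (91.8 to 93.5) with 200 or more. At under 50 counts the intervals of promoter and other regions overlapped. At 100 to 199 counts the other regions reached 51.8% (49.1 to 54.6) and at 200 or more 80.8% (75.3 to 85.6), both under the promoters. In the other direction, 9468 of 11316 promoter regions of the library labelled KO (83.7%) were overlapped by a WT region. Over genes, 10933 had a promoter region in both libraries, 3015 only in WT and 912 only in the library labelled KO.

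**Figure D3:**
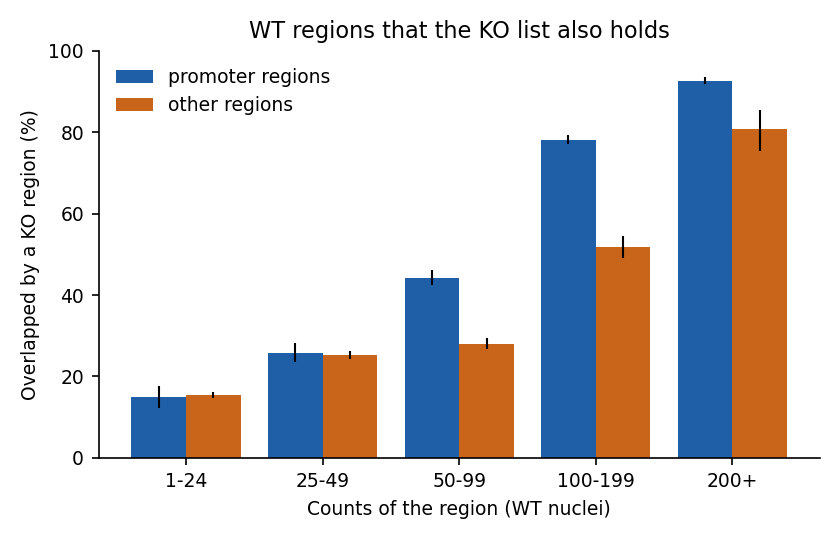
Share of WT regions (%) overlapped by at least 1 bp of a region listed for nuclei labelled KO, by the region's WT counts. Bars are promoter and other regions and lines 95% exact binomial intervals; shares rise from 14.9% to 92.7% for promoters.

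Among promoter regions with 200 or more WT counts, 275 of 3743 had no KO counterpart. After Garnl3 the highest were Myo1c (552 counts, a motor protein), Ell (518, an elongation factor), the shared promoter of Dcaf6 and Mpc2 (490), Kat6b (461, a histone acetyltransferase) and Mnt (459, a Max-binding repressor). Counts of the library labelled KO inside these intervals were not analysed here, so a difference in opening cannot be told apart from a difference in calling.

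Promoters took a like share of the region counts in all nuclear types, and some differed in level between types. Nuclei were grouped by RNA alone into 12 named types and 2 unnamed clusters, and region counts played no part. The smooth muscle-like class held 802 WT nuclei (28.4%), enteric glia-like 492, epithelial-like 413, mesothelial-like 385, fibroblast-like 145 and enteric neuron-like 137. Epithelium is not a layer of the muscularis, yet 14.6% of WT nuclei were epithelial-like, and 8.69% of those labelled KO. The share of region counts in promoters was between 70.4% (enteric neuron-like) and 78.7% (B lymphocyte-like) in every named WT type. Smooth muscle-like nuclei had at least 1 count in 13906 of the promoter regions (98.4%), and their share in promoters was 71.9%. In types with fewer nuclei and counts fewer promoter regions had any count, down to 29.6% in T lymphocyte-like nuclei, 39.1% in blood endothelial-like and 39.99% in B lymphocyte-like nuclei. In nuclei labelled KO the shares ran from 59.9% (blood endothelial-like) to 81.9% (B lymphocyte-like). The 2 unnamed clusters held 7.4% of WT and 3.90% of KO nuclei, with 67.8% and 64.5% of counts in promoters.

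Contractile genes had promoters that were more open in smooth muscle-like nuclei. Of 13 with a WT region, 10 were at least 2-fold higher there, in CPM of region counts, than in all other nuclei, and 11 were above 1. Among all 13434 promoter regions with at least 20 counts in kept nuclei, 3.18% were past 2-fold. The interval of the ratio lay above 1 for 10 of the 13 and for 4.15% of all. The median ratio was 2.59 for contractile genes, 1.09 for transcription factors of smooth muscle and 1.08 for housekeeping genes, beside 0.994 for all promoter regions. None of the 11 housekeeping genes was past 2-fold. Acta2, Actg2, Myh11, Smtn, Synpo2 and Mylk also named the smooth muscle-like clusters by their RNA, which the region counts did not enter.

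Among the filament and motor genes, the Acta2 promoter (smooth muscle alpha-actin, chromosome 19, 34255117 to 34256109) had 72 counts in smooth muscle-like nuclei, 109 CPM, and 41 elsewhere, 22.0 CPM. The ratio was 4.97 (2.76 to 8.74). Actg2 (enteric gamma-actin) had 112 against 23.1 CPM, a ratio of 4.87 (2.73 to 8.47). Myh11 (smooth muscle myosin heavy chain) had 131 counts, 199 CPM, against 44.0 CPM, a ratio of 4.52 (3.04 to 6.90). These 3 genes led the list. Myl9, the regulatory light chain, had a ratio of 2.59 (1.59 to 4.08), whereas Myl6, a light chain used in most cells, had 0.93 (0.61 to 1.37).

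Genes that regulate or anchor the filaments followed. Smtn had 156.5 against 49.9 CPM, a ratio of 3.13 (2.07 to 4.75). Kcnmb1 had 3.90 (1.84 to 7.92), and Synpo2, an actin-bundling protein, 3.16 (1.56 to 6.48). The tropomyosins Tpm1 and Tpm2 had 2.20 (1.41 to 3.42) and 2.16 (1.20 to 3.86), and caldesmon (Cald1) 2.23 (1.06 to 4.64). Mylk, the myosin light chain kinase, was at 1.51 (0.72 to 3.13). Hspb6, a small heat shock protein, had more WT counts than any other contractile gene but Myl6, and a ratio of 0.96 (0.63 to 1.4). The other 7 contractile genes, Tagln, Cnn1, Lmod1, Des, Pln, Casq2 and Ppp1r14a, had no WT promoter region, although Des had 3056 UMIs and Tagln 1555.

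Of the 13 transcription factors, Myocd and Hand1 were past 2-fold. Myocd had 60.8 against 12.9 CPM, a ratio of 4.72 (2.20 to 10.6), and Hand1, a mesenchymal basic helix-loop-helix factor, 2.83 (1.39 to 5.76). Tead1, a partner of the Hippo pathway coactivators, had 1.67 (1.07 to 2.59). Srf, the partner of Myocd, was open to a like degree across types, with 85.1 CPM in smooth muscle-like nuclei, 95.04 elsewhere and a ratio of 0.90 (0.56 to 1.37). Its values were 98.5 CPM in glia-like, 111 in epithelial-like and 136 in fibroblast-like nuclei. Mrtfa, which also binds Srf, had a ratio of 1.09 (0.74 to 1.57). Klf5 was at 0.59 (0.29 to 1.10), and Gata6 and Mef2c had too few counts to place (0.60, 0.18 to 1.58, and 0.45, 0.15 to 1.27). Among the 12 immediate early genes the median ratio was 0.915. Nr4a1, an orphan nuclear receptor, was the one past 2-fold (2.17, 1.43 to 3.29), and Fos was below 1 (0.57, 0.33 to 0.93). The 10 Hox promoters had ratios of 0.69 to 1.72, and all their intervals included 1.

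**Figure D4:**
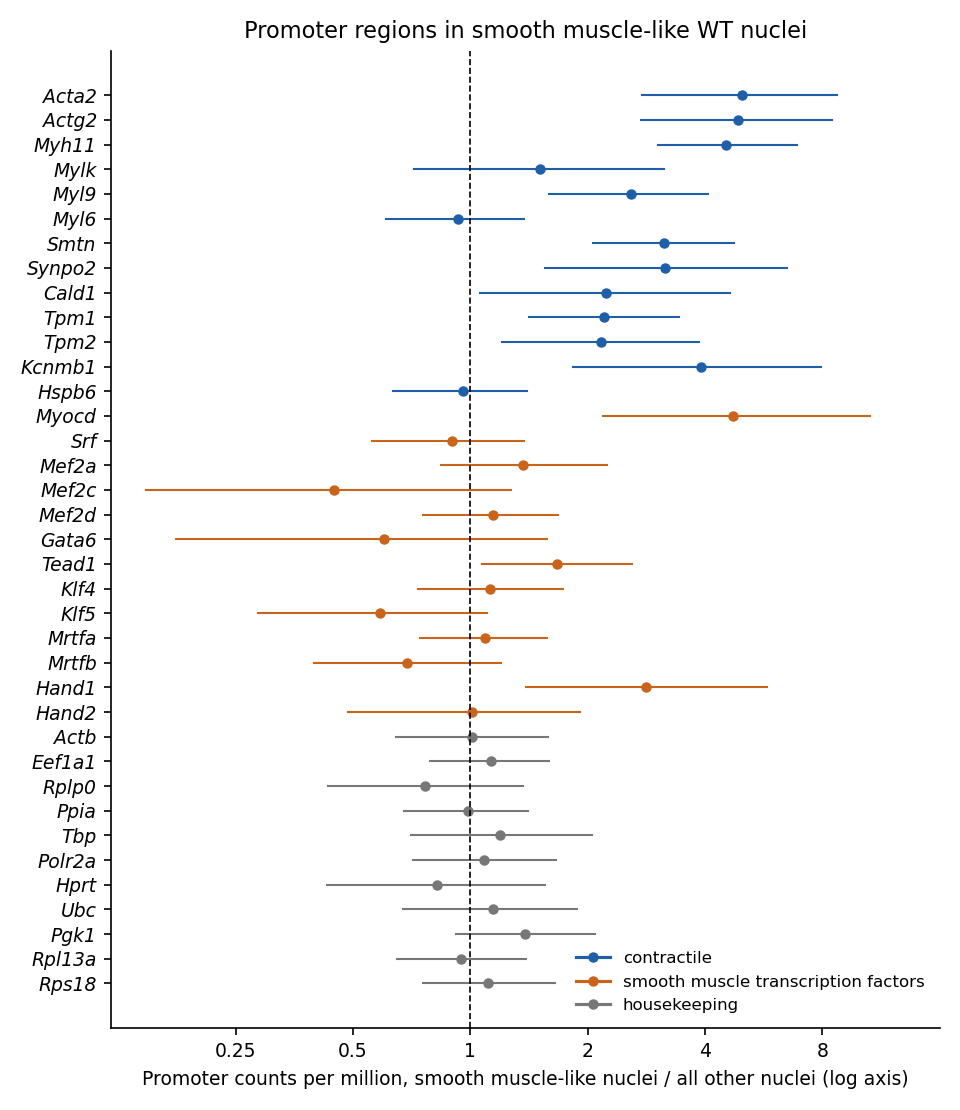
Ratio of promoter CPM in smooth muscle-like WT nuclei to that in all other WT nuclei (log axis), for genes with a promoter region. Points are ratios and lines 95% exact intervals for counting error; 10 of 13 contractile and 0 of 11 housekeeping genes lie at 2 or more.

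Marker genes of the other types behaved in the same direction where counts allowed. Of 23 markers of these types with a promoter region, 18 were higher in their own type and 15 were at least 2-fold higher, with a median ratio of 2.45. The interval lay above 1 for 4 epithelial, 2 mesothelial, 2 neuronal and 1 fibroblast marker, and for no others. Here, as for the contractile genes, only genes with a listed region enter, and a region may be listed through the type where it is high. Slc26a3, for example, had 17 counts in epithelial-like nuclei and 4 elsewhere. The 15 include Ptprb, Mrc1 and Bank1, of types with few nuclei. Past 2-fold among all promoter regions were 5.85% in epithelial-like, 4.75% in mesothelial-like, 7.21% in enteric neuron-like, 9.4% in fibroblast-like and 5.55% in glia-like nuclei. In the 6 types with fewest nuclei the share was 14.9% (macrophage-like), 15.8% (interstitial cells of Cajal), 18.3% (lymphatic endothelial), 19.3% (blood endothelial), 20.8% (B lymphocyte) and 21.5% (T lymphocyte), so a 2-fold ratio there says little. The 4 epithelial markers had ratios of 2.60 to 22.1. Cdh1 (E-cadherin) had 54.1 against 20.8 CPM, a ratio of 2.60 (1.14 to 5.6), and Epcam, an epithelial adhesion molecule, 73.8 against 8.04 CPM, a ratio of 9.18 (3.55 to 22.5). The mesothelial markers Upk3b and Muc16 had 5.72 (2.42 to 12.3) and 7.87 (1.81 to 34.2).

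The 5 neuronal markers had ratios of 1.73 to 3.41, the highest at Syt1, a synaptic vesicle protein (1.34 to 8.09). Tubb3 (neuronal tubulin) had 2.45 (1.11 to 5.56) and Elavl4, a neuronal RNA-binding protein, 1.73 (0.61 to 4.72). Col1a1 (type I collagen) had 3.001 (1.15 to 6.64) in fibroblast-like nuclei and Col3a1 1.86 (0.21 to 7.34). The glial marker S100b had 2.01 (0.66 to 4.90). In those 6 small types the counts could not place the markers. Etv1 had 2 counts in interstitial cell of Cajal-like nuclei (0.89, 0.02 to 5.15), Kdr 1 and Ptprb 2 in blood endothelial-like nuclei, Mrc1 4 in macrophage-like and Bank1 1 in B lymphocyte-like nuclei. Prox1 and Flt4 had 0 of 32228 counts in lymphatic endothelial-like nuclei, where 3 counts would be 93.1 CPM and the upper limit of the interval from pairs is 229 CPM. Themis and Skap1 had 0 of 13987 in T lymphocyte-like nuclei, where those values are 214.5 and 527.5 CPM. Kcnj8 (93 WT counts) was the only vascular mural marker with a region. No cluster was named mural, although 1 smooth muscle-like cluster also met the naming rule for mural nuclei. The adipocyte and skeletal muscle lists had a promoter region for 0 of 4 and 0 of 5 genes.

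Promoters varied less between types than other regions of like counts. In smooth muscle-like nuclei against the rest, the log2 ratio had a standard deviation of 0.45 over 6027 promoter regions with 100 to 199 counts and 0.63 over 899 other regions. Past 2-fold higher were 1.16% and 6.23% of them. In glia-like nuclei the standard deviations were 0.67 and 0.89, and in epithelial-like nuclei 0.67 and 1.07. Where RNA was strongly higher in a type, most promoters moved the same way but less, and most clearly in smooth muscle-like nuclei. Among 6174 genes, 41 had RNA at least 4-fold higher in smooth muscle-like nuclei (median log2 ratio 2.57). Their promoters had a median log2 ratio of 0.69, and 35 of 41 (85.4%) were above 0, beside 53.6% of all 6174. In the other types compared, 60.0% (mesothelial-like) to 73.7% (glia-like) of such promoters were above 0, with median log2 ratios of 0.19 to 0.36. Of all promoters, 45.9% to 53.5% were above 0 in those types. The rank correlation between the RNA and promoter ratios was 0.159 in smooth muscle-like, 0.246 in epithelial-like and 0.0587 in fibroblast-like nuclei, as a description over genes. It was 0.174 in enteric neuron-like, 0.103 in glia-like and 0.0822 in mesothelial-like nuclei.

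Within nuclei labelled KO, 9 of 10 markers with a matched region were higher in their own type, with a median ratio of 3.76. There Myh11 had 202 CPM in smooth muscle-like nuclei against 55.4 elsewhere, a ratio of 3.65 (2.22 to 6.07), and Acta2 3.86 (2.08 to 7.18). Smtn differed: 106 against 90.4 CPM, a ratio of 1.17 (0.67 to 1.99), whose interval ended below that of the WT nuclei (2.07 to 4.75). The Smtn CPM outside smooth muscle-like nuclei was higher in the library labelled KO (90.4 against 49.9). Synpo2 had 11.2 (4.57 to 34.0) in nuclei labelled KO.

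Among promoter regions called in both libraries, counts were close. A region without a KO counterpart has no ratio, so regions that lost counts may be missing here. A counterpart was listed for 83.9% of WT promoter regions with at least 100 counts. Over 7860 promoter regions with at least 100 WT counts and a KO counterpart, the log2 ratio of CPM (labelled KO over WT) had a median of 0.17 and quartiles of -0.03 and 0.36. With totals taken over the shared promoter regions alone the median was -0.01, so ratios are read relative to the shift of all regions. Of these, 61 were at least 2-fold higher (0.776%) and 16 at least 2-fold lower (0.204%), beside 0.998% and 0.206% of all 8720 shared regions. The most extreme ratios went with regions that were called differently. The lowest were Cdk16 (0.16, 0.09 to 0.28), Tmem106c (0.21, 0.10 to 0.41), Gnl3l (0.27, 0.12 to 0.59), Plekhh2 (0.27, 0.13 to 0.57) and Slc38a2 (0.31, 0.19 to 0.50). At these 5 the called regions overlapped by 19 to 637 bp of WT widths of 1012 to 1990 bp.

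The highest ratios were at Kpnb1 (5.45, 4.12 to 7.17), Usp34 (4.87, 3.58 to 6.75), Kmt5b (4.44, 3.37 to 5.96), Vcp (3.75, 2.73 to 5.15) and Tmem115 (3.52, 2.62 to 4.82). There the KO regions were 1485 to 2029 bp wide and the WT regions 566 to 1112 bp. When each region had to cover at least 50% of the other, 7676 pairs remained, of which 19 were 2-fold higher and 2 lower. The highest were then Sbno1 (3.32, 2.48 to 4.51) and Sdk1 (3.14, 2.50 to 3.93), a cell adhesion gene whose regions had like widths of 1072 and 1041 bp. The lowest were Mtx2 (0.47, 0.26 to 0.83) and Tusc1 (0.495, 0.30 to 0.81).

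Of the 13 contractile genes with a WT promoter region, 8 had a KO counterpart. Actg2, Myl6, Tpm1, Mylk and Kcnmb1 had no KO counterpart and so no ratio between the libraries. Among the 8, only Tpm2 had a ratio whose interval left out 1. Tpm2 had 129 counts (43.0 CPM) in WT and 151 (81.4 CPM) in the library labelled KO, a ratio of 1.89 (1.34 to 2.68). Acta2, the alpha-actin, had 1.33 (0.91 to 1.995), Myh11 1.07 (0.78 to 1.44), Smtn 1.15 (0.85 to 1.54) and Myl9 0.77 (0.53 to 1.14). Synpo2, Cald1 and Hspb6 had 1.28, 1.49 and 1.02. The smooth muscle-like class is compared by cluster, since cluster 1 also met the naming rule for vascular mural nuclei. Its mean log2 fold was 1.47 for mural and 1.67 for smooth muscle markers. Clusters 1, 6 and 13 held 202, 367 and 233 WT nuclei and 238, 77 and 101 labelled KO. Within each of them the interval of every contractile ratio included 1, but some intervals were very wide. In cluster 13 Cald1 had 2 counts in each library and an interval of 0.038 to 236.9. Such ratios cannot show that nothing changed. For Myh11 the ratios were 0.93 (0.48 to 1.81), 1.35 (0.63 to 2.62) and 0.93 (0.22 to 3.01), and for Tpm2 1.74 (0.73 to 4.57), 1.35 (0.30 to 4.26) and 5.03 (0.98 to 32.4).

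In bulk colon RNA, genes with a promoter region passed the test about as often as all genes tested. Of 12295 tested genes with a WT promoter region, 43 (0.350%) passed the edgeR threshold of adjusted p 0.05, 16 higher and 27 lower in libraries labelled KO. Over all 20886 genes tested, 0.388% passed (0.115% higher and 0.273% lower). Of 5342 tested genes without a region in either library, 29 passed (0.543%). Median log2 fold changes were 0.01 with a WT region, 0.00 over all genes and 0.00 with no region. Genes with a region were more abundant, with median WT values of 22.4 against 2.05 CPM, and had a smaller median SE (0.26 against 0.62).

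All 43 genes kept the sign of their fold change in each alternative fit. Genes picked for passing and refitted on mostly the same libraries are likely to do so. How many passed depended on the libraries used. The list fell to 4 genes without KO t6, 4 without WT t1, 6 without WT t6 and 24 without KO t4, and rose to 119 without KO m1. With only the 6 colon libraries in the fit none passed at an adjusted p under 0.05, while 1404 genes with a region had an unadjusted p under 0.05; DESeq2 on 12 libraries called 547. Tags repeat between colon and jejunum within a genotype, and the fit takes the 12 libraries as independent. Of the 10 genes named below, Errfi1 and Gt(ROSA)26Sor stayed past the threshold without any 1 colon library.

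The 5 lowest fold changes were these. Bvht, a long non-coding RNA gene on the chromosome of Carmn, had 8.01, 4.79 and 6.28 CPM in libraries labelled KO (m1, t4, t6). The WT libraries (t1, t6, t7) had 45.8, 27.5 and 67.4 CPM (log2 fold change -2.88, SE 0.34, edgeR adjusted p = 0.00739). All 3 KO values lay below all 3 WT values, whereas its promoter had 222 WT and 147 KO counts, a ratio of 1.07 (0.79 to 1.46). Gt(ROSA)26Sor, the transcript of the Rosa26 locus, which carries the mTmG reporter allele, had 1.24, 1.42 and 1.14 CPM against 9.05, 7.80 and 10.7. It fell by 2.86 on the log2 scale (SE 0.30, edgeR adjusted p = 0.00449), and its promoter ratio was 1.53 (1.27 to 1.84), from 470 and 444 counts. RNA and promoter counts of this gene thus went in opposite directions, but its called regions differed. They were 1542 (WT) and 1821 bp (KO) wide with an overlap of 1027 bp.

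Matn4, a matrix protein gene, had 5.23, 3.33 and 6.84 CPM against 37.4, 16.05 and 37.9 (log2 fold change -2.57, SE 0.36, edgeR adjusted p = 0.0192). Lratd1 had 4.30, 2.22 and 2.13 against 12.5, 23.8 and 12.9 CPM (-2.50, SE 0.41, edgeR adjusted p = 0.0320). The promoter regions of both, with 83 and 130 WT counts, had no KO counterpart. Sh3bgr, expressed in striated muscle and other tissues, had 27.2, 15.8 and 15.2 against 85.8, 79.1 and 100.6 CPM (-2.19, SE 0.37, edgeR adjusted p = 0.0341). Its promoter ratio was 0.9997 (0.68 to 1.49). In all 3 genes the groups did not overlap, which selection by fold change among called genes makes likely.

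The 5 highest were Ptpru, Mt1, Fkbp5, Klf2 and Errfi1. Ptpru, a receptor tyrosine phosphatase, had 168, 30.3 and 236 CPM against 15.1, 14.0 and 18.9 (log2 fold change 3.18, SE 0.56, edgeR adjusted p = 0.0446). KO t4 was near the WT range, and the promoter ratio was 1.37 (0.87 to 2.21). Mt1 (metallothionein 1) had 98.6, 290 and 253 against 21.9, 25.9 and 23.4 CPM (3.17, SE 0.43, edgeR adjusted p = 0.0189), with a promoter ratio of 1.17 (0.83 to 1.62). Fkbp5, a chaperone cofactor induced by glucocorticoids, had 125, 149 and 194 against 25.1, 45.5 and 22.1 CPM (2.33, SE 0.32, edgeR adjusted p = 0.0192), and its promoter (247 WT counts) had no KO counterpart.

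Klf2, a zinc finger factor, had 239, 153 and 436.5 against 65.1, 45.3 and 58.0 CPM (2.30, SE 0.40, edgeR adjusted p = 0.0404), with a promoter ratio of 1.30 (0.9973 to 1.70). Errfi1, a feedback inhibitor of EGF receptor signalling, had 160, 240 and 186 against 49.3, 35.8 and 43.5 CPM (2.19, SE 0.21, edgeR adjusted p = 0.00306). Its promoter went slightly the other way, with a ratio of 0.88 (0.63 to 1.21). In each of the 5 genes every KO value lay above every WT value, though genes picked this way are likely to separate. The share of all genes tested whose groups do not overlap is not given here.

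Promoter counts and RNA of these genes were then set side by side. Of the 27 genes that were lower in bulk, 19 had a matched promoter region, with ratios of 0.71 to 1.61 and a median of 1.10. Below 1 were 6, none with an interval wholly below 1. The interval lay above 1 for 2, Gt(ROSA)26Sor and Bmpr1a. At both the KO region was wider than the WT region (1821 against 1542 bp and 1708 against 955 bp). Of the 16 that were higher, 14 had a matched region, with ratios of 0.48 to 1.43 and a median of 1.20. Over 8648 tested genes with a shared promoter region of at least 100 WT counts, the median ratio was 1.12 and the rank correlation between promoter ratio and bulk fold change was 0.0847, as a description over genes. Sik1, a salt-inducible kinase, had the lowest promoter ratio of the 33, with 336 WT and 100 KO counts (0.48, 0.34 to 0.66), while its RNA rose (log2 fold change 1.64, SE 0.22, edgeR adjusted p = 0.0176). Its called regions differed, at 1228 and 848 bp with an overlap of 575 bp, and Sik1 was picked out after its values were seen.

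RNA of the same nuclei gave a further value for each of these genes. Of the 16 genes that were higher in bulk, 16 also had more UMIs, scaled to equal totals, in nuclei labelled KO. Mt1 had 78.3 against 10.5 CPM of UMIs and Fkbp5 299.5 against 100.7. Of the 27 that were lower, 21 had fewer and 6 had more. Gt(ROSA)26Sor had 20.3 against 34.2, Matn4 2.85 against 5.73 and Sh3bgr 9.90 against 16.1 CPM of UMIs. The lower bulk RNA of Bvht and Lratd1 was not seen in nuclei, where they had 1.95 against 1.404 and 9.30 against 4.33 CPM, from 13 and 12 UMIs and from 62 and 37 UMIs. These nuclear values come from 1 library per genotype and have no replicate check. The share of all genes with more UMIs in nuclei labelled KO is not given here, so these counts have no baseline. The libraries also differed in cell types: macrophage-like nuclei, for example, were 1.95% of WT nuclei and 9.34% of those labelled KO.

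**Figure D5:**
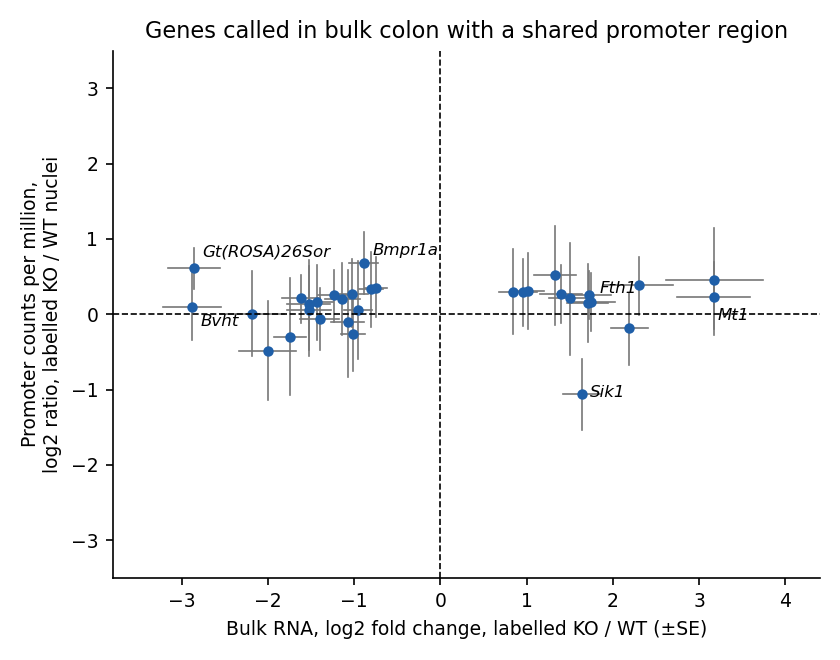
The 33 genes called in bulk colon with a promoter region in both nuclear libraries. The x axis is the bulk log2 fold change (labelled KO over WT, horizontal lines 1 SE) and the y axis the log2 ratio of promoter CPM in nuclei (vertical lines 95% counting intervals), which stays between 0.48 and 1.61 on the linear scale.

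Of the 20 contractile genes, 2 passed in bulk, beside 0.388% of all genes tested (0.273% lower). Both were lower in libraries labelled KO and had no WT promoter region: Casq2 (calsequestrin, log2 fold change -3.46, SE 0.28, edgeR adjusted p = 0.00113) and Pln (phospholamban, -2.93, SE 0.43, edgeR adjusted p = 0.0240). None of the 13 with a region passed, and their median log2 fold change was -0.82. Hspb6 came nearest (-1.57, SE 0.30, edgeR adjusted p = 0.0568). None of 17 tested transcription factors and none of 12 immediate early genes passed, with medians of 0.07 and 1.05. Markers of other cell types were measured beside these: of the lists for 15 cell types, only that of skeletal muscle had a called gene, Ckm (creatine kinase, log2 fold change -1.76, edgeR adjusted p = 0.0320), 1 of 5. The smooth muscle markers had a median of -0.61 (0 of 10 passed) and the epithelial markers -0.44 (0 of 9). Medians were lower still for the adipocyte (-1.84, 4 genes), skeletal muscle (-1.61) and mesothelial lists (-0.71, 4 genes), and -0.60 for B lymphocyte markers. The other 9 cell type lists had medians between -0.27 and 0.46. All lists were written with earlier results of these data known. With only the 6 colon libraries in the fit no gene passed, with or without a region. Leaving out 1 colon library gave 7 to 180 called genes over all genes tested. Whether Casq2, Pln and Ckm were among those is not given here. In bulk tissue fewer cells of a type and less RNA per cell cannot be told apart, and the part of cell composition in these changes was not tested.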

How the data were processed

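RNA and accessible chromatin were measured in the same nuclei of colon muscularis, in 1 WT library and 1 labelled KO, and bulk RNA in 12 libraries (3 for each genotype in colon and in jejunum). Groups came from the labels. Per the file headers, the nuclear count matrices were made by the authors with Cell Ranger ARC, with regions called separately in each library. The deposited bulk counts are raw reads per gene; the submitters' processing notes name STAR 2.0.4b and featureCounts 1.4.5 from Subread, edgeR, and the builds GRCm38 and mm10. All deposited gene values of the nuclei are even and were divided by 2 to give UMIs, which is an inference from the values. Region counts were used as deposited, and 11.6% of WT region values are odd.

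The distance rule was applied to the WT region list. A gene's value is that of its promoter region with most counts, and the KO value is that of the KO region with the largest overlap of at least 1 bp. Nuclei with at least 300 genes, under 5% mitochondrial UMIs and at most 50000 UMIs were kept (the last limit was set after seeing the data), which left 2827 and 1691. They were clustered jointly on RNA with scanpy 1.11.5 (3000 variable genes, 30 components, 15 neighbours, resolution 1.0). A cluster was named "X-like" from at least 3 markers at 2-fold or more, detected in at least 10% of its nuclei, with a mean log2 fold of at least 1; the last 2 limits were set after seeing clusters. Scrublet marked 1 WT nucleus and 0 in the other library, so in effect no doublets were removed. Intervals are 95% exact binomial or Poisson intervals from scipy 1.17.1, made from pairs of counts for region counts.

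Bulk counts (24254905 to 44315104 per library) were tested in edgeR 4.0.16 with its quasi-likelihood test, TMM scaling and Benjamini-Hochberg adjustment over all 20886 genes tested. All 12 libraries shared 1 estimate of the spread. DESeq2 1.42.0, limma 3.58.1 with and without a block of shared tags, other scalings and filters, and leaving out each colon library were tried as alternatives. The edgeR step was tested on simulated data. Nothing says that the 3 bulk libraries of a group came from separate animals, so p-values measure the spread between these libraries, which may be technical. Of 40757 bulk rows, 276 with a repeated identifier were dropped. Promoter windows and printed sequences are RefSeq's for GRCm38.p6; Actg2, Myh11 and Tagln were among the list genes with no window. The 6 printed sequences were chosen after values were seen; promoters whose printed stretch would hold annotated UTR were left out.

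The promoter regions and the gene lists were chosen with earlier results of these data known. Genes named with values are the 5 promoter regions with most counts and the 2 list members with most promoter counts in each cell type. The rule adds every contractile gene with a region, the 5 genes at each end of the RNA relation, and the 5 highest and lowest fold changes in bulk and between nuclear libraries. Other genes were named after their values were seen, and 1 that the rule takes is not reported here.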

Additional observations from a re-analysis of the deposited data

How the results depend on the processing

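The share of regions at promoters, 40.4%, was 36.7% at a distance of 0 bp, 41.9% at 2000 bp and 28.9% when only gene intervals of at most 1000 bp were used. The share of counts, 70.7%, was 66.3%, 72.1% and 56.4% in the same order, 70.5% when nuclei with a count replaced counts, and 70.48% without the 6 regions with most counts. The overlap with regions of the library labelled KO, 67.4%, was 66.0% and 65.2% when 50% of the WT region or of both regions had to overlap, and 83.9% for regions with at least 100 counts. It was 69.6% at 0 bp and 66.1% at 2000 bp. The rank correlation between RNA and promoter counts, 0.524, was 0.540 for the sum over regions, 0.560 for bulk RNA, 0.533 for short intervals and 0.660 over all genes. The median log2 ratio between libraries, 0.17, was -0.014 with totals over shared promoter regions, 0.23, 0.30 and 0.31 in smooth muscle-like clusters 1, 6 and 13, and 0.15 per kb with 50% overlap of both. Of genes with a promoter region, 43 passed in bulk, 0 with only the 6 colon libraries (1404 at an unadjusted p under 0.05) and 547 by DESeq2; leaving out 1 colon library gave 4 to 119. The share of markers past 2-fold in their own type, 69.0%, stayed between 69.0% and 83.3% in the 5 alternatives run. The cause of these differences was not tested. The alternatives without the 6 highest regions, per kb, and with at least 100 counts for markers and bulk genes were chosen after seeing the data.

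No paired analysis was possible because the colon libraries labelled KO and WT share 1 tag only (t6), and there is 1 nuclear library per genotype. Within a genotype, 5 tags occur in both colon and jejunum. Deviations of same-tag libraries from their group means had correlations of -0.163 to 0.1002, so the data do not show that the tags pair the libraries. A limma-voom fit with these tags as a replicate block called 53 genes with a promoter region, as did limma-voom without the block; both were chosen after seeing the data. With the block, 9 of the 10 named genes passed, and Ptpru did not (adjusted p = 0.124). Depth limits the types with few nuclei and every region with few counts, since the share found in both libraries rises with the counts. No value was tested for outliers, since groups hold 3 libraries or 1.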

Other observations

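The most type-dependent promoters were not all those of known markers. These promoters were picked by their ratio, so the ratios are descriptions. In smooth muscle-like WT nuclei, Klhl38, a kelch-like gene, had 100.3 against 22.01 CPM (ratio 4.55, 2.50 to 8.09) with 6 UMIs there and 7 elsewhere. Tnc (tenascin C, a matrix glycoprotein) had a promoter ratio of 3.82 (2.07 to 6.81) and an RNA ratio of 4.27. In glia-like nuclei Apc2 had 170.5 against 25.26 CPM (6.75, 3.75 to 12.1). In epithelial-like nuclei Tc2n had a ratio of 4.32 (2.44 to 7.62), and its KO region, whose counts did not enter the choice, had 6.20 (2.07 to 15.6). In enteric neuron-like nuclei the shared promoter of Asphd1 and Sez6l2 had 4.44 (2.38 to 7.84), and 4.93 (1.963 to 12.9) in nuclei labelled KO. The promoter of Spata7, chosen the same way (3.40 in WT), had 0.39 (0.009428 to 2.32) in nuclei labelled KO. Among promoters picked by ratio in types other than smooth muscle-like, the KO interval lay above 1 only for Tc2n, Prelid2, Smim1 and Asphd1 with Sez6l2. For the rest it included 1, as at Fbxl17 (0.98, 0.29 to 3.09), or no KO region was listed.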
